A study of Mus musculus with 15 samples.

Results

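The 36 genes described here encode the core machinery of DNA replication. They cover origin licensing (Orc1, Orc6, Cdc6, Cdt1), the MCM2-7 helicase, helicase activation (Mcm10, Cdc45 and 4 GINS subunits), primase and the replicative polymerases, and the sliding clamp with its loader. Single-strand binding proteins, deoxynucleotide synthesis enzymes, the Okazaki fragment enzymes Lig1 and Fen1, and the chromatin assembly subunit Chaf1a complete the set. The genes were listed by role and not by any measured value, though earlier results of these data were known. All 36 symbols were found among the 23337 in the files, and all 36 passed the filter on low counts that left 15181 genes to test. RNA was sequenced in 15 libraries of progenitor cells sorted from mouse bone marrow, untreated per the labels, of genotype Trappc1KO or WT. Common myeloid progenitors (CMP) and granulocyte-monocyte progenitors (GMP) were both negative for lineage markers and Sca1 and positive for CD117 and CD34. CMP were low and GMP high for CD16/32. The groups held 4 WT CMP, 4 KO CMP, 4 WT GMP and 3 KO GMP libraries, the last numbered 1, 3 and 4. The labels used here do not give the strain, the animals' age, the driver of the deletion or whether libraries came from separate animals. Each p-value therefore reflects how far these libraries scatter, which may not be the scatter between animals.

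Before a cell divides, the origin recognition complex, Cdc6 and Cdt1 load the ring of Mcm2 to Mcm7 onto DNA. Cdc45 and the GINS complex then join that ring to form the active helicase, and polymerase alpha with primase starts each new strand. Replication factor C loads the ring-shaped clamp PCNA, which tethers the polymerases. Ribonucleotide reductase (Rrm1 and Rrm2) and thymidylate synthase (Tyms) supply deoxynucleotides. Many of these genes are transcribed at the entry to S phase under E2F factors, and myeloid progenitors are a rapidly dividing population. TRAPPC1, the product of the gene targeted in the KO, is a subunit of the TRAPP complexes, which act in vesicle traffic between the endoplasmic reticulum and the Golgi.

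Library totals ran from 61.3 to 120.3 M units, with about 4 units taken as 1 fragment (15.3 to 30.1 M fragments). The replication gene with the fewest units in any library, Gins3, still had 1184. Levels are given in CPM, the count scaled to a common library size after TMM normalization. Trappc1 was at 18.4, 26.2, 18.8 and 25.2 CPM in WT CMP and at 5.56, 3.83, 11.7 and 13.4 in KO CMP. It was at 41.3, 37.0, 30.9 and 33.3 CPM in WT GMP and at 6.09, 24.1 and 25.2 in KO GMP. No KO library reached its WT group (exact permutation test, two-sided, p = 0.0286 in CMP and 0.0571 in GMP, each the smallest those group sizes allow), and Trappc1 RNA remained in every KO library. In edgeR Trappc1 was not called in CMP (log2 -1.36, adjusted p = 0.243) or GMP (-0.95, adjusted p = 0.770), and DESeq2 called it in CMP (adjusted p = 0.0267). Fcgr3, which encodes CD16, was lower in each CMP library (13.9 to 118 CPM) than in any GMP library (128 to 292), and Kit and Cd34 were present throughout (239 CPM or more and 191 or more). KO CMP libraries 1 and 2 and KO GMP library 1 stood apart. They held Xist, an RNA made by the inactive X chromosome of female cells, at 109, 204 and 123 CPM against at most 2.17 elsewhere. Within numbers 1 and 2 each KO library and no WT library held it at that level. Sex, which was not tested, and genotype therefore cannot be told apart there. Summed GMP-stage granule genes were at 4879 and 5516 CPM in those KO CMP libraries against 11852 to 25157 in the other 6 CMP libraries, and at 22693 CPM in that KO GMP library against 41095 to 46952 in the other 6. Libraries of 1 group also differed by number: WT CMP 1 and 2 held 22681 and 25157 CPM of granule genes and WT CMP 3 and 4 held 11852 and 12764. KO was therefore also compared with WT within numbers 1 and 2 and within numbers 3 and 4. In CMP the KO difference in Trappc1 was larger in numbers 1 and 2 than in 3 and 4. The 2 log2 differences were apart by -1.45 ± 0.28 (SE, adjusted p = 0.00689 in edgeR). In GMP, Trappc1 was at 6.09 CPM in KO GMP 1 and at 24.1 and 25.2 in KO GMP 3 and 4. Comparisons within numbers 3 and 4 thus rest on KO libraries that kept more Trappc1 RNA. The labels do not say what the numbers mark.

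Promoter sequence was available from RefSeq (GRCm38.p6, 250 bases before to 50 after the annotated start) for 29 of the 36 genes. Mcm4, Gins1, Gins2, Gins4, Prim2, Pole and Rfc2 had none in that table. The letters of an E2F site (TTTCCCGC, TTTCGCGC, TTTGCCGC or TTTGGCGC, either strand, overlaps between matches allowed) were present in 12 of the 29, or 41.4%. They were present in 2.6% of all 27025 genes with such a sequence and in 4.38% of the 10566 tested ones. The letters CCAAT, on either strand, were in 20 of the 29 (69.0%), against 41.1% of all and 42.4% of tested genes. The 160 bases before the start of 4 genes are shown, because the first 3 carry E2F letters and the fourth, a gene with one of the clearest differences between GMP and CMP, carries none in its whole 300 bases. Capitals mark E2F letters in the first 3 lines and CCAAT or its reverse complement in the last. The windows, each on the gene's own strand, are chr8:75109349-75109508 (plus strand, Mcm5), chr1:128359706-128359865 (minus, Mcm6), chr11:98907991-98908150 (plus, Cdc6) and chr2:5012792-5012951 (minus, Mcm10).
Mcm5: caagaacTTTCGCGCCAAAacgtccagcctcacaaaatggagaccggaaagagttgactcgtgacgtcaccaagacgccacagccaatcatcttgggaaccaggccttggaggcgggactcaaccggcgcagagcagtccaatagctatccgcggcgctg
Mcm6: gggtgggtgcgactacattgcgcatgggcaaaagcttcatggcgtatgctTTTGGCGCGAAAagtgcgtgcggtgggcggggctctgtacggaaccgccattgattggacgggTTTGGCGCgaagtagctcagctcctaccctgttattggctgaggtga
Cdc6: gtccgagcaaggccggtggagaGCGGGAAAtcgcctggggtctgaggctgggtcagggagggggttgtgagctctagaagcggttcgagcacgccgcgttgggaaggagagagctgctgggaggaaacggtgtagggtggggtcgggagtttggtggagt
Mcm10: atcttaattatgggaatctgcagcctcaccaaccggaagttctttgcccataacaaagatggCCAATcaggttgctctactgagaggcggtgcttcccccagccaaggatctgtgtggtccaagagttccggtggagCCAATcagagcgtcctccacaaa
In Mcm5 the capitals are a pair of overlapping matches on opposite strands, 153 and 149 bases before the start. Mcm6 has such a pair at 110 and 106 bases and a single match 47 bases before the start, and Cdc6 has 1 match, on the opposite strand, 138 bases before it. The GENCODE M21 annotation starts Cdc6 further upstream, at chr11:98907801. By that annotation the Cdc6 window lies inside the gene, though in no annotated exon. Mcm5 and Cdc6 differed between the WT cell types below, and Mcm6 did not pass the test. Of the 12 genes called higher in WT GMP that had promoter sequence, 4 (33.3%) carried E2F letters, against 41.4% of the 29.

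The genes differ widely in level. Per kb of merged exon (GENCODE M21), Pcna, the clamp, was highest in WT CMP at 172 ± 11.1 CPM per kb (SD, n = 4). Mcm6, Mcm3, Mcm7 and Mcm5 followed at 119.5 ± 10.7, 117 ± 5.82, 110.0 ± 6.94 and 105 ± 5.99 CPM per kb. These 4 helicase subunits lay within about 1 SD of their neighbours in that order, with Mcm4 at 67.1 ± 3.93 and Mcm2 at 49.1 ± 3.29 below them. The order depends on the merged length, which counts the exons of every annotated transcript (6956 bases for Mcm2 and 3589 for Mcm4). By CPM alone Mcm2 was above Mcm4 in WT CMP (341.5 ± 22.9 against 241.0 ± 14.1). The lowest were Orc1, the largest origin recognition subunit, at 5.38 ± 0.995 CPM per kb, and Gins3 at 6.63 ± 0.190. In WT GMP the ends of the order were the same genes, Pcna at 195 ± 7.32 and Orc1 at 6.61 ± 0.306 CPM per kb. Rrm2 was at 49.2 ± 2.92 CPM per kb in WT CMP and at 92.9 ± 13.5 in WT GMP, which moved it past Fen1 and Mcm4.

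**Figure D1:**
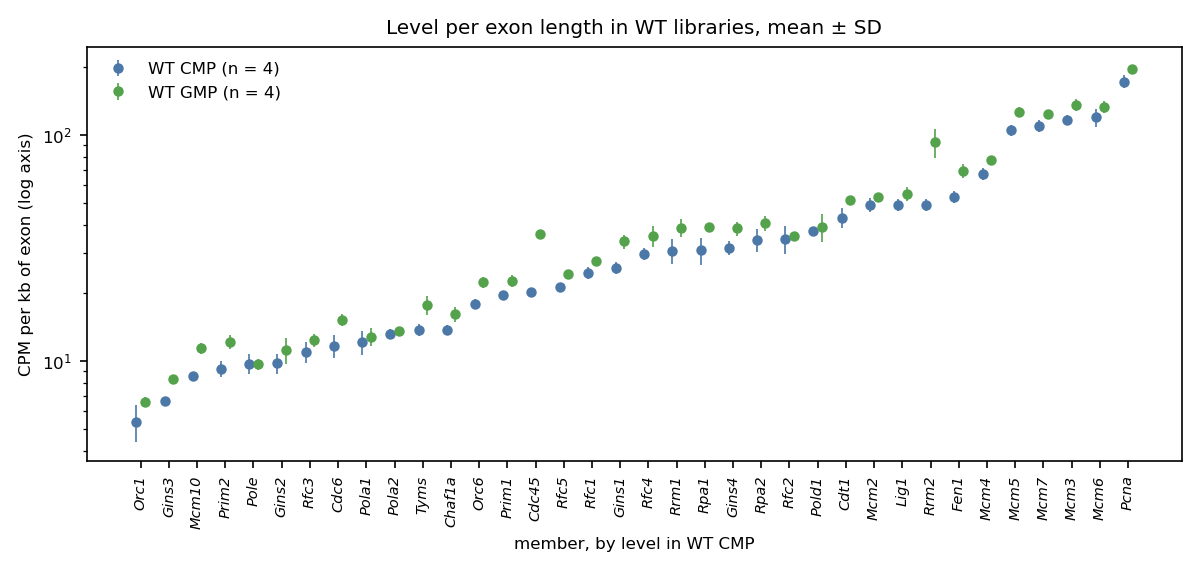
Level of each replication gene per kb of merged exon in WT CMP and WT GMP (log axis, mean ± SD, 4 libraries each), ordered by the level in WT CMP. Pcna, Mcm6, Mcm3, Mcm7 and Mcm5 are highest, Orc1 and Gins3 lowest, and Cdc45 and Rrm2 show the widest gaps between the cell types.

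In WT cells the replication genes were higher in GMP than in CMP, as a group by a modest amount and in Rrm2 and Cdc45 by nearly 2 times. Of the 36, 15 were higher in GMP at an adjusted p under 0.05 (edgeR's quasi-likelihood test, Benjamini-Hochberg over all 15181 genes) and 0 were lower. Over all tested genes, 11.3% were called higher and 14.2% lower. The log2 difference was above 0 for 35 of the 36 (48.4% of all genes), with a median of 0.24 against -0.02 for all genes. With library totals in place of TMM, all genes shifted to a median of -0.16. Then 30 of the 36 were above 0, with a median of 0.09, so the distance between replication genes and all genes stayed at 0.25. At an unadjusted p under 0.05, 23 of the 36 were higher and 0 lower (17.6% and 20.2% of all genes). The lowest GMP library was above the highest CMP library for 22 of the 36 (14.8% of all genes), and the reverse held for 0 (17%). Summed over the 36 genes, the level was 5822, 6073, 5725 and 6047 CPM in WT CMP and 6955, 6951, 7055 and 6934 in WT GMP, with no overlap. In bulk libraries, fewer cells of a type, such as cells in S phase, and less RNA per cell cannot be told apart. The summed granule genes, 11852 to 25157 CPM in WT CMP and 41095 to 44858 in WT GMP, moved with this comparison. All 10 listed granule genes were higher in GMP and all 15 stem cell genes lower, and their part in the result was not tested.

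**Figure D2:**
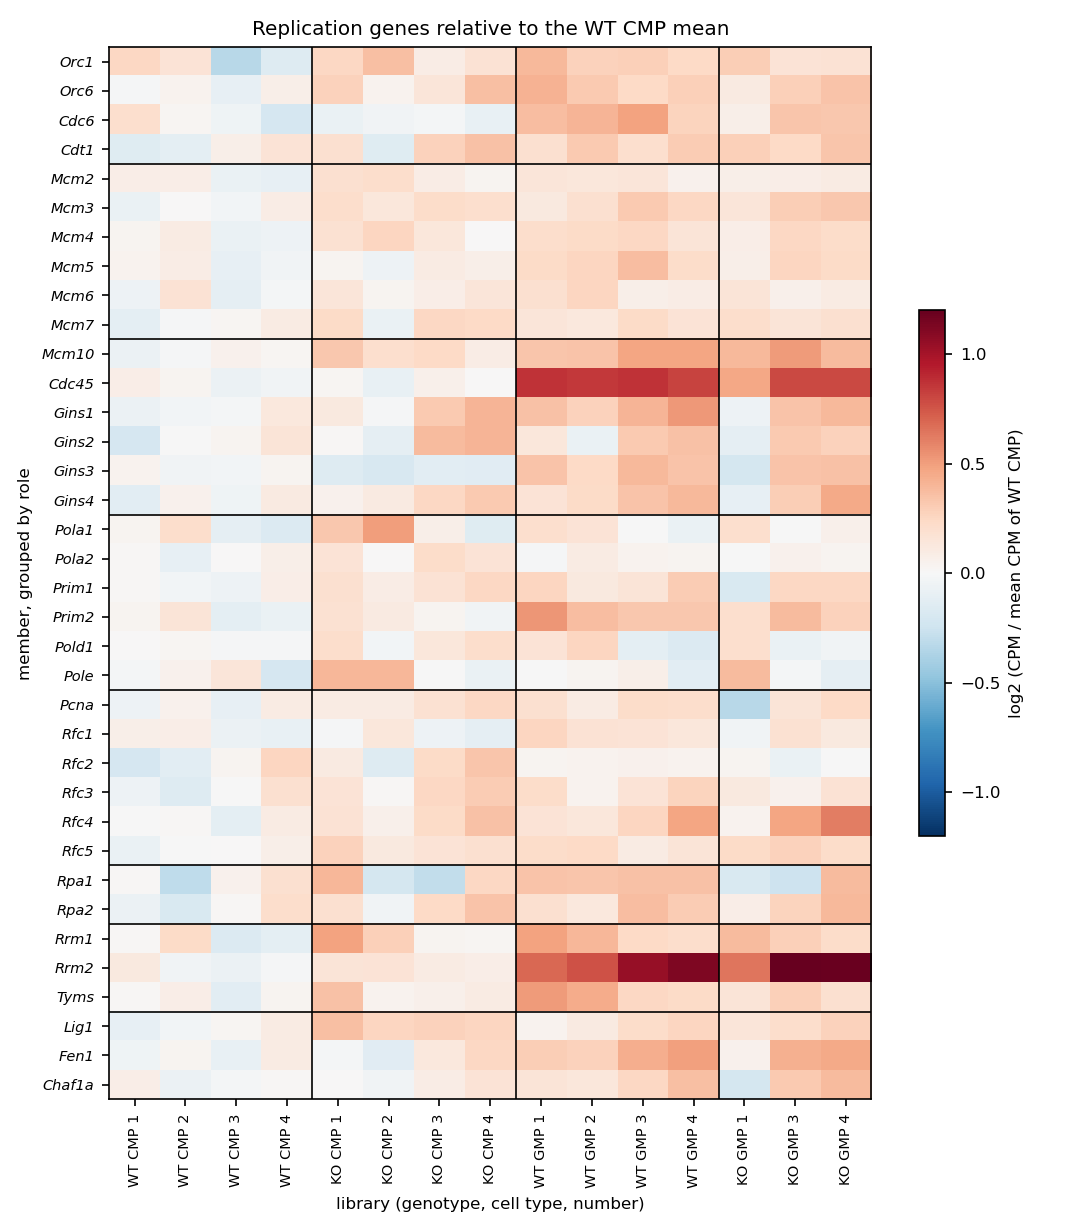
Log2 ratio of each gene's CPM in each of the 15 libraries to its mean in WT CMP (colour), with genes grouped by role (rows) and libraries by group (columns). Cdc45 and Rrm2 stand out across WT GMP, and Pcna and Gins3 are lower in KO GMP library 1 than in the other GMP libraries.

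The licensing genes included Cdc6, the ATPase that helps load the MCM ring. It was at 70.3, 62.1, 58.9 and 53.2 CPM in WT CMP and at 78.8, 81.3, 85.3 and 73.8 in WT GMP. The groups did not overlap, and the log2 difference was 0.38 ± 0.09 (SE, adjusted p = 0.00666). Orc6, a small origin recognition subunit, was also called (0.32 ± 0.08, adjusted p = 0.0132). Orc1 and Cdt1, the partner that brings MCM rings to origins, were at 0.30 ± 0.12 and 0.25 ± 0.10 and did not pass (adjusted p = 0.0802 and 0.0773). With the library number as a block, Orc1 and Cdt1 passed (adjusted p = 0.0229 and 0.0316).

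Among the 6 MCM2-7 subunits, all of which form the motor ring of the helicase, Mcm5, Mcm3 and Mcm4 were called higher in WT GMP. Mcm5 was at 433, 445, 392 and 408 CPM in WT CMP and at 492, 501, 543 and 488 in WT GMP, which do not overlap (0.27 ± 0.07, adjusted p = 0.0137). Mcm3 was at 415, 440.5, 429 and 467 CPM in WT CMP and at 476, 500.4, 546 and 522 in WT GMP, also apart (0.22 ± 0.07, adjusted p = 0.030). Mcm4 had 0.21 ± 0.07 (adjusted p = 0.0469). Mcm7, Mcm6 and Mcm2 had 0.17 ± 0.08, 0.16 ± 0.08 and 0.12 ± 0.07 and did not pass. The ring subunits thus covered a narrow range of log2 differences, 0.12 to 0.27.

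Helicase activation held the clearest member. Cdc45, which links the MCM ring to the moving fork, was at 74.7, 72.3, 67.4 and 68.9 CPM in WT CMP and at 129, 128, 129.6 and 124 in WT GMP. Cdc45 lies on the minus strand at chr16:18780447-18811987 (GRCm38). Every GMP value was above every CMP value (1.80-fold, log2 0.85 ± 0.08, adjusted p = 6.47e-05). Mcm10, a scaffold that joins helicase activation to polymerase alpha, was at 63.0, 65.6, 68.3 and 67.3 CPM in WT CMP and at 83.4, 83.9, 91.8 and 91.8 in WT GMP (1.33-fold, 0.41 ± 0.07, adjusted p = 0.001). Of the 4 GINS subunits, Gins1 (0.39 ± 0.11, adjusted p = 0.0211) and Gins3 (0.33 ± 0.11, adjusted p = 0.0406) were called. Gins4 and Gins2 were at 0.28 ± 0.11 and 0.19 ± 0.14 and were not called, and with the number as a block Gins4 passed (adjusted p = 0.0102). Cdc45, with Rrm2 and Mcm10, stayed past the threshold under each of 23 alternative settings.

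Prim2, the large primase subunit, was at 56.2, 61.1, 50.8 and 51.9 CPM in WT CMP and at 79.5, 71.0, 68.8 and 68.7 in WT GMP (0.39 ± 0.08, adjusted p = 0.00399). It was the only one of the 6 primase and polymerase genes past the threshold. Prim1, the catalytic primase subunit, had 0.21 ± 0.09 and did not pass. Pola1 and Pola2 of polymerase alpha, Pold1 of polymerase delta and Pole of polymerase epsilon had log2 differences of 0.07, 0.04, 0.05 and -0.01, with SE of 0.13, 0.06, 0.10 and 0.13. Pole was at 107, 113, 121 and 94.7 CPM in WT CMP and at 108, 111, 114 and 99.8 in WT GMP, so its groups overlapped fully.

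Of the clamp and its loader, Rfc5, a small loader subunit, passed (0.18 ± 0.06, adjusted p = 0.0418). Pcna was at 396, 427, 386 and 443 CPM in WT CMP and at 471, 442, 481 and 477 in WT GMP, with 1 overlapping pair of libraries (0.18 ± 0.10, adjusted p = 0.226). Rfc1, Rfc2, Rfc3 and Rfc4 had 0.19, 0.04, 0.18 and 0.26 and did not pass. With the number as a block Rfc3 and Rfc4 did (adjusted p = 0.0320 and 0.0370). Rpa2, a subunit of the single-strand binding protein RPA, had 0.25 ± 0.10 (adjusted p = 0.0916), and with the block it passed too (adjusted p = 0.0064). Rpa1, the large RPA subunit, was at 174, 139, 179 and 197 CPM in WT CMP and at 219, 216, 219 and 220.0 in WT GMP, without overlap (0.34 ± 0.17, adjusted p = 0.145). Its KO values were uneven, 227, 149, 140.3 and 204 CPM in KO CMP and 152, 144 and 224 in KO GMP, and these values enter the same estimate of spread.

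All 3 nucleotide synthesis genes were called higher in WT GMP. Rrm2 (chr12:24708241-24714146, plus strand, GRCm38), the regulated small subunit of ribonucleotide reductase, was at 148, 133, 129.9 and 135 CPM in WT CMP and at 219.7, 232, 281 and 297 in WT GMP. The groups did not overlap (1.89-fold, log2 0.92 ± 0.12, adjusted p = 0.000275). Tyms was at 84.3, 87.9, 76.3 and 85.0 CPM in WT CMP and at 119, 113, 99.0 and 97.9 in WT GMP (0.36 ± 0.09, adjusted p = 0.00875). Rrm1, the large reductase subunit, had 0.34 ± 0.12 (adjusted p = 0.0449), with the highest CMP library at 398 CPM above the lowest GMP library at 392. Fen1, the flap nuclease that trims Okazaki fragments, was at 125, 133, 121 and 139 CPM in WT CMP and at 159, 156, 175 and 182 in WT GMP (0.38 ± 0.10, adjusted p = 0.0167). Lig1, the ligase that seals them, and Chaf1a, which deposits histones behind the fork, had 0.16 ± 0.07 and 0.23 ± 0.11 and did not pass. With the block the WT count was 21 of 36 higher. It fell to 7 without WT CMP 3, 7 without WT GMP 3, 8 without WT GMP 4, and 4 with library totals in place of TMM (Mcm10, Cdc45, Rrm2 and Fen1). Of 23 alternative settings, 15 lost Rfc5, 14 Mcm4, 13 Rrm1, 12 Gins3 and 8 Mcm3.

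The other replication genes listed beside these 36 gave 13 of 47 tested higher in WT GMP and 0 lower, beside 11.3% and 14.2% of all tested genes. They were led by Asf1b, a histone chaperone (0.57 ± 0.09, adjusted p = 0.00089), and Recql4, a helicase needed at origins (0.40 ± 0.07, adjusted p = 0.00196). Wdhd1, a fork scaffold also called AND-1, and Dna2, an Okazaki nuclease, had 0.28 ± 0.07 and 0.29 ± 0.07. Of 28 genes of G2 and mitosis, 18 were higher and 1, Cdc25b, was lower. Cdk1, the kinase that starts mitosis, had 0.60 ± 0.09, and the mitotic genes Plk1, Bub1 and Tpx2 had 0.63 ± 0.10, 0.44 ± 0.08 and 0.43 ± 0.07. Of 31 tested E2F, RB and G1/S regulators, 4 were higher and 6 lower, shares near those of all tested genes. The cyclin-dependent kinase inhibitors Cdkn1b and Cdkn1c were lower in GMP (-0.49 ± 0.08 and -1.82 ± 0.34), while Tfdp1, the partner of E2F proteins, and Ccna2, the S-phase cyclin, were higher (0.49 ± 0.09 and 0.43 ± 0.08).

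In KO cells the same comparison, 3 KO GMP against 4 KO CMP libraries, called 3 of the 36 genes higher and 0 lower, where 10.7% of all tested genes were called higher and 10.5% lower. Cdc45 was at 72.1, 66.6, 74.1 and 71.1 CPM in KO CMP and at 97.9, 123 and 122 in KO GMP (log2 0.69 ± 0.08, adjusted p = 0.000285). Rrm2 was at 152, 153, 146 and 144 CPM in KO CMP and at 212, 314 and 310.0 in KO GMP (0.91 ± 0.13, adjusted p = 0.000635). For both genes KO GMP library 1 was the lowest of the 3 and still above all KO CMP libraries. Cdc6 had 0.30 ± 0.10 (adjusted p = 0.0358). At an unadjusted p under 0.05, 7 of the 36 were higher and 0 lower (15.9% and 17.4% of all genes). Of the other genes, Gins3, Fen1, Prim2 and Mcm10 came next, at 0.34 ± 0.12, 0.26 ± 0.11, 0.22 ± 0.09 and 0.21 ± 0.07, and did not pass. The median over the 36 was 0.05 with 23 above 0 (all genes -0.02 and 47.6%), and this direction turned with library totals, to -0.09 with 9 above 0. Cdc6 was no longer called without any one of KO CMP 1, 2, 3 or 4 or KO GMP 3 or 4. It was also lost with library totals, under which Cdc45 and Rrm2 were called higher and Pola2 lower (-0.24, adjusted p = 0.024), so that the calls were 2 higher and 1 lower. Without KO GMP library 1 the count was 7, with the number as a block 4 (Prim2 added, adjusted p = 0.0434), and without all 3 KO libraries that stood apart 6 (Cdc45, Rrm2, Cdc6, Gins3, Mcm10 and Prim2).

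**Figure D3:**
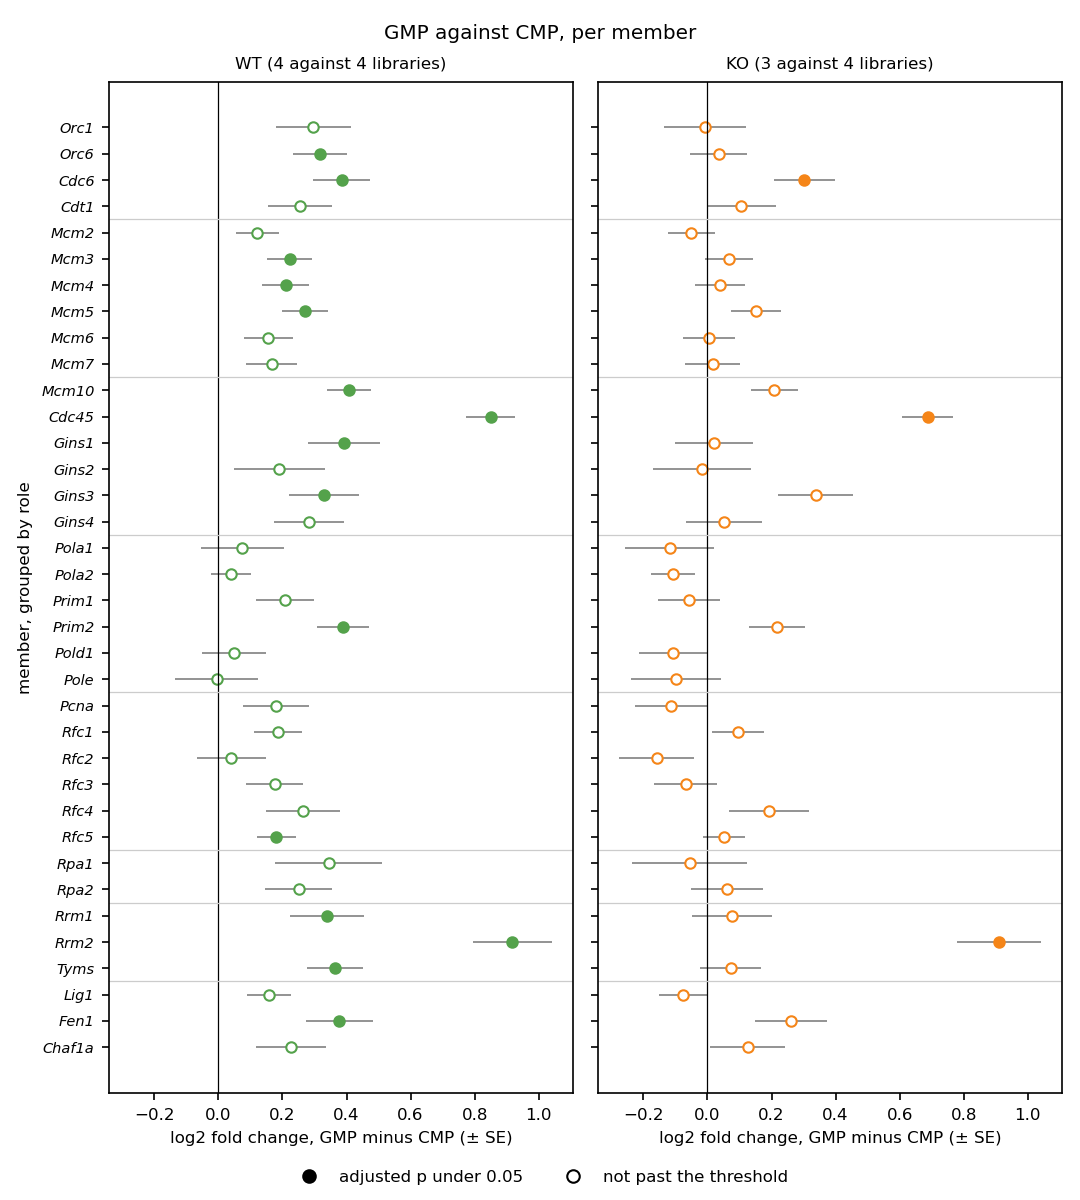
Log2 difference between GMP and CMP (± SE) for each gene in WT (left) and KO (right), with filled symbols for an adjusted p under 0.05. In WT, 35 of 36 symbols lie right of 0 and 15 are filled. In KO, 23 lie right of 0 and 3 are filled (Cdc6, Cdc45 and Rrm2).

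The comparison of KO with WT in CMP showed small positive differences in most of the 36 genes, and none passed the threshold. The edgeR test called 0 of 36 in either direction, as it called 0% of all tested genes. At an unadjusted p under 0.05, 6 of the 36 were higher and 0 lower, against 4.68% and 6.92% of all genes. DESeq2 called 3 of the 36 higher (Lig1, Rfc5 and Mcm3), and 133 genes higher and 227 lower in all. The log2 difference was above 0 for 33 of the 36 (51.4% of all genes) with a median of 0.16 (0.01 for all genes), and for 33 or 34 under each of the 4 scalings tried. The summed level of the 36 was 6765, 6235, 6503 and 6602 CPM in KO CMP, and each of these was above the WT CMP range of 5725 to 6073. As a share of all counts before TMM scaling, the 36 made up 0.660% to 0.730% in KO CMP and 0.611% to 0.620% in WT CMP.

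Lig1 (chr7:13277283-13311433, plus strand, GRCm38) led this comparison. It was at 196, 205, 214 and 224 CPM in WT CMP and at 269.9, 251, 253 and 250.1 in KO CMP, so the groups did not overlap. Its log2 difference was 0.29 ± 0.07, with an adjusted p of 0.192 in edgeR and 0.00289 in DESeq2. Mcm3 was at 415, 440.5, 429 and 467 CPM in WT CMP and at 506, 480.0, 509.8 and 505 in KO CMP (0.19 ± 0.07, adjusted p = 0.297 in edgeR and 0.0374 in DESeq2). Rfc5 was at 94.2, 99.3, 100.1 and 104 CPM in WT CMP and at 121, 108, 112 and 114 in KO CMP (0.19 ± 0.06, adjusted p = 0.258 in edgeR and 0.0336 in DESeq2). Mcm10 and Prim1 were also higher in every KO than in every WT library, which with Lig1, Mcm3 and Rfc5 makes 5 of 36 genes (3.25% of all genes). Gins3 alone was lower in every KO library, at 16.1, 15.7, 16.5 and 16.4 CPM against 18.5, 17.5, 17.5 and 18.3 (-0.15 ± 0.11; 3.6% of all genes). The 3 genes below 0 were Gins3, Cdc6 and Rfc1, and Cdc45 was level at 0.00 ± 0.08. So the genes with the widest gap between WT GMP and WT CMP, Cdc45 and Rrm2 (0.12 ± 0.12 in KO CMP), were not the ones that led here.

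**Figure D4:**
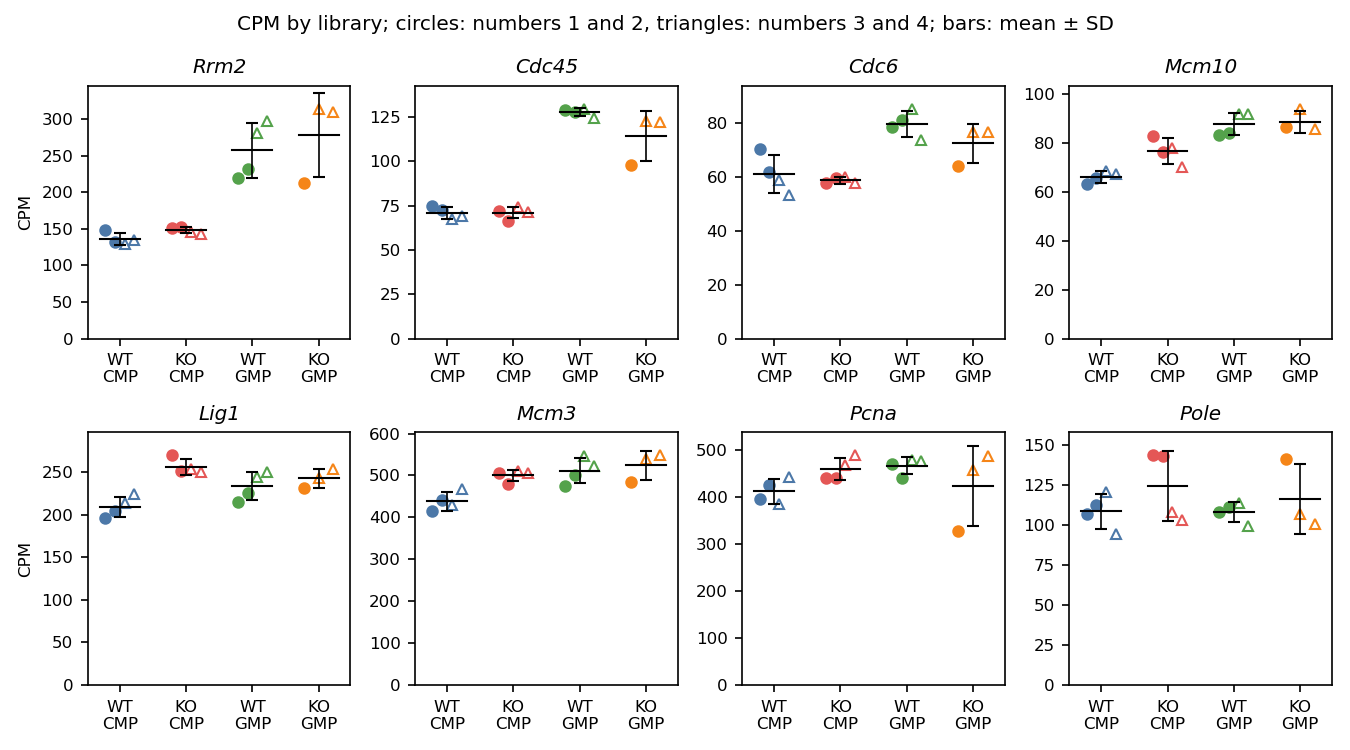
CPM of 8 replication genes in each library (filled circles for numbers 1 and 2, open triangles for 3 and 4), with mean ± SD per group. Rrm2, Cdc45 and Cdc6 sit higher in GMP, Lig1 and Mcm3 sit higher in KO CMP than in WT CMP, and Pcna is lowest in KO GMP 1, where Pole is highest among the GMP libraries.

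Within numbers 1 and 2, KO CMP libraries were compared with WT CMP, 2 against 2, with the spread taken from all 8 combinations of group and number set. Of the 36, 5 were higher and 0 lower, against 8.23% and 10.2% of all tested genes. Lig1 (0.38 ± 0.07, adjusted p = 0.00181), Mcm10 (0.31 ± 0.08, adjusted p = 0.016), Pole (0.38 ± 0.10, adjusted p = 0.0221), Rfc5 (0.24 ± 0.07, adjusted p = 0.0366) and Pola1 (0.29 ± 0.09, adjusted p = 0.0497) were the 5. Pola1 lies on the X chromosome, and Xist parted these KO and WT libraries (above). In KO GMP 1, which also held Xist, Pola1 was at 122.7 CPM against 122.9 and 119.5 in WT GMP 1 and 2. The part of sex was not tested, and the Pola1 call was lost in 14 of 21 alternatives. Pole, the catalytic subunit of the leading-strand polymerase, was at 144 and 143 CPM in KO CMP 1 and 2 against 107 and 113 in WT CMP 1 and 2. At an unadjusted p under 0.05, 7 of the 36 were higher and 0 lower, against 14.8% and 15.9% of all genes. Both KO libraries were above both WT libraries in 18 of the 36 (28.7% of all genes) and below both in 4 (26.9%). The median over the 36 was 0.12 with 29 above 0 (all genes 0.01 and 51.3%). Lig1 stayed past the threshold in each of 21 alternatives. The count was 2 without KO CMP 1 and 1 without WT CMP 1. It was 3 when any one of KO CMP 3 or 4, KO GMP 3 or 4, WT CMP 4 or WT GMP 1, 2, 3 or 4 was left out, 9 with DESeq2 and 11 with library totals. KO CMP 1 and 2 are the libraries that held less granule gene RNA, and they also held more stem cell and multipotent progenitor gene RNA (2257 and 2166 CPM summed, against 1574 and 1696 in WT CMP 1 and 2) and more stromal and endothelial gene RNA (301 and 370 CPM against 232 and 234). Of the listed genes, 10 of 10 granule genes were lower, 10 of 15 stem cell genes higher, and 8 of 11 stromal genes higher and 1 lower. Among the stromal genes Cxcl12 was at 98.3 and 141 CPM in KO CMP 1 and 2 against 12.9 and 15.5, and Col1a1 at 5.99 and 14.1 against 0.385 and 0.729. Megakaryocyte genes summed to 953 and 695 CPM in KO CMP 1 and 2 against 453 and 455, and erythroid genes to 716 and 572 against 447 and 458. Monocyte and dendritic cell genes were at 390.4 and 839.7 CPM against 1225 and 1253, late neutrophil genes at 13.9 and 17.2 against 270.2 and 303, and B, T and NK cell genes at 167 and 216 against 266 and 292. The part of these genes' cells in the result was not tested.

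Within numbers 3 and 4, where the granule gene sums were alike (12065 and 12542 CPM in KO CMP, 11852 and 12764 in WT CMP), edgeR and DESeq2 each called 0 of the 36. All tested genes gave 0.00659% higher and 0% lower in edgeR. At an unadjusted p under 0.05, 15 of the 36 were higher and 0 lower, against 6.18% and 5.21% of all genes. In 29 of the 36 both KO libraries were above both WT libraries, against 20.9% of all genes, and in 1, Gins3, both were below (22.4%). The log2 difference was above 0 for 32 of the 36 (47.2% of all genes), with a median of 0.16 against -0.01. Orc1 was at 19.9 and 21.1 CPM in KO CMP 3 and 4 against 14.9 and 16.8 in WT CMP 3 and 4 (0.37 ± 0.09, unadjusted p = 0.00165, adjusted p = 0.266). Gins1, Gins2 and Rfc4 had 0.31 ± 0.08, 0.30 ± 0.09 and 0.30 ± 0.10. Pole, called in numbers 1 and 2, had -0.03 ± 0.10 here. The summed stem cell genes were 1982 and 1874 CPM in KO CMP 3 and 4 and 1980 and 1936 in WT CMP 3 and 4, and the summed stromal genes 156 and 156 against 165 and 159.6. Other sums did not overlap between KO CMP 3 and 4 and WT CMP 3 and 4. Monocyte and dendritic cell genes were at 1235 and 1318 CPM in KO against 1531 and 1642 in WT. Megakaryocyte genes were at 524 and 525 against 478 and 476, erythroid genes at 519 and 523 against 480.4 and 494, and late neutrophil genes at 67.5 and 74.2 against 47.5 and 57.8. Of the genes on these 4 lists, edgeR called 1 late neutrophil gene higher and none of the others, and their part in the result was not tested.

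The difference of the KO effect between the number sets in CMP was itself tested. It passed for 0 of the 36 genes in edgeR, against 3.05% of all genes higher in numbers 1 and 2 and 4.59% lower, with 1 gene higher and 2 lower at an unadjusted p under 0.05 (9.57% and 11% of all genes). Pole came nearest (0.41 ± 0.15, adjusted p = 0.125). It passed with the number as a block (0.40, adjusted p = 0.0407) and in DESeq2 (0.45, adjusted p = 0.0444). The 2 lower genes at an unadjusted p under 0.05 were Fen1 (-0.25 ± 0.12) and Mcm5 (-0.24 ± 0.10). With library totals Lig1 passed (0.31, adjusted p = 0.048), and 1 gene passed without WT CMP 4.

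**Figure D5:**
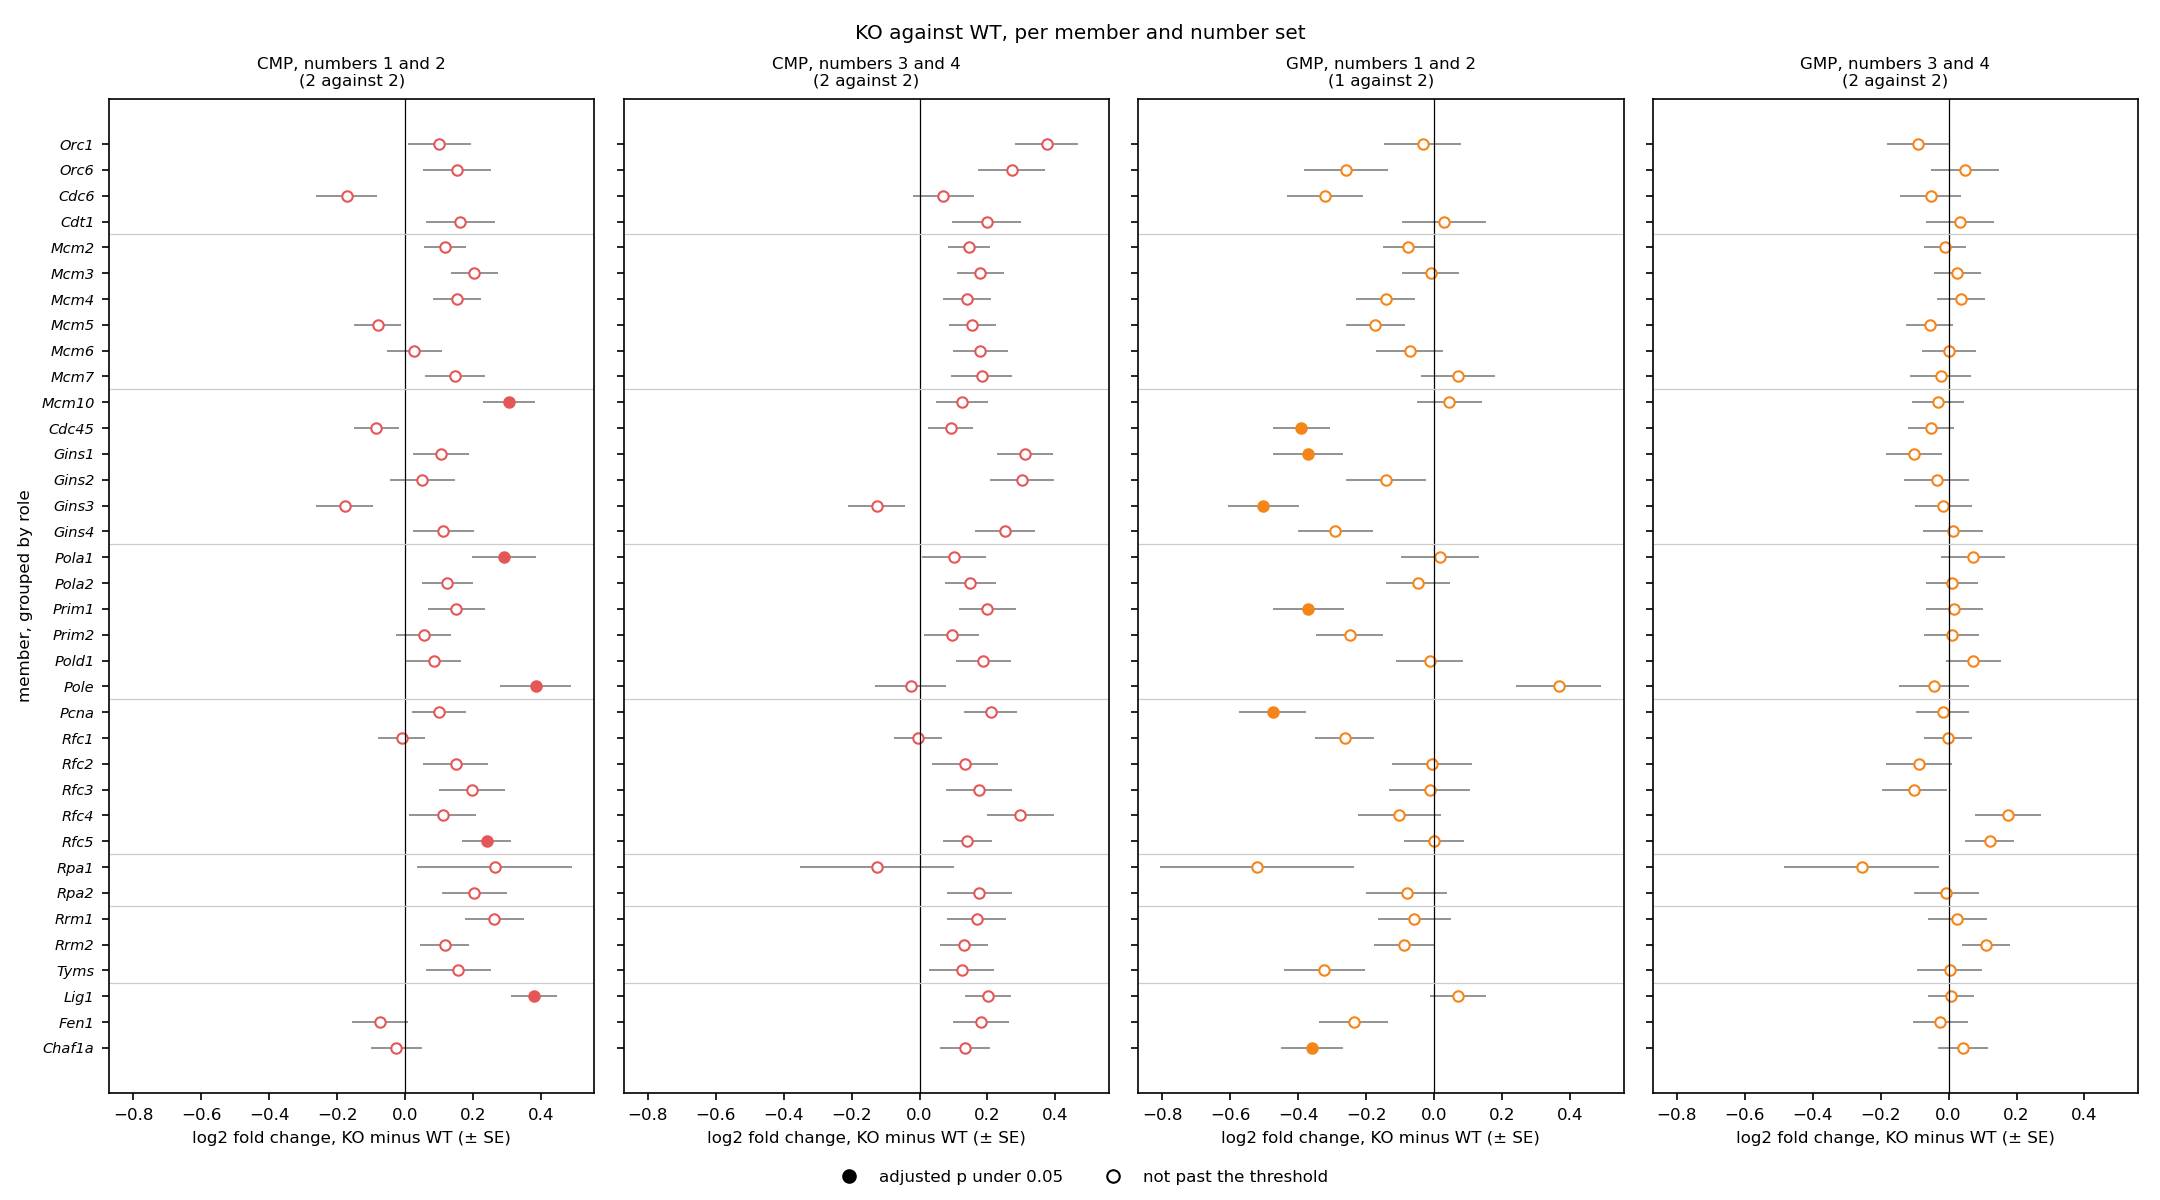
Log2 difference between KO and WT (± SE) for each gene in CMP and GMP within numbers 1 and 2 and within numbers 3 and 4, with filled symbols for an adjusted p under 0.05. CMP panels lie mostly right of 0, GMP numbers 3 and 4 are centred on 0, and GMP numbers 1 and 2 (a single KO library) lie mostly left of 0 with 6 filled symbols.

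In GMP none of the 36 genes passed the test between KO and WT. The edgeR test and DESeq2 each called 0, as edgeR called 0% of all tested genes in GMP, and 0 of the 36 had an unadjusted p under 0.05 (4.49% of all genes higher and 2% lower). The median log2 difference was -0.05 with 10 of 36 above 0 (all genes 0.01 and 51.9%), and with library totals -0.02 with 15 above 0. Summed over the 36 genes, KO GMP libraries were at 6427, 6896 and 7055 CPM, the first and the second (libraries 1 and 3) below the WT GMP range of 6934 to 7055. The values ran from -0.34 ± 0.18 in Rpa1 to 0.13 ± 0.13 in Rfc4. In Cdc45 and Rfc2 all KO GMP libraries lay below all WT GMP libraries (2 of 36, 3.7% of all genes).

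KO GMP library 1, the one that stood apart, differed from WT GMP 1 and 2 in 6 of the 36 genes, all lower, against 9% of all tested genes lower and 11% higher. With 1 KO library, the spread is borrowed from the other groups, so these values compare that library with WT GMP 1 and 2, not the genotypes. Pcna was at 328 CPM in KO GMP 1 against 471 and 442 in WT GMP 1 and 2 (-0.48 ± 0.10, adjusted p = 0.00476). Gins3 was at 15.5 CPM against 22.8 and 21.1 (-0.50 ± 0.11, adjusted p = 0.0052), and Cdc45 at 97.9 against 129 and 128 (-0.39 ± 0.08, adjusted p = 0.00581). These values are below every other GMP library. Chaf1a, Gins1 and Prim1 had -0.36 ± 0.09, -0.37 ± 0.10 and -0.37 ± 0.10 (adjusted p = 0.0162, 0.0242 and 0.026). Pole went the other way, at 142 CPM against 108 and 111 (0.37 ± 0.13, adjusted p = 0.0596). With the number as a block 10 genes were called, 9 lower and Pole higher, as in DESeq2 by count. Without WT GMP 1 the count was 3, and the median of -0.10 over the 36 (6 above 0) turned to 0.02 (19 above 0) with library totals. This library held fewer granule gene counts (above), more stem cell gene counts (1364 CPM summed against 596 to 778 in the other GMP libraries) and 269.6 CPM of stromal genes against 230.1 to 239.6, with the collagen gene Col1a1 at 2.74 CPM against 0 to 0.134. Of the listed genes, 9 of 10 granule genes were lower, 14 of 15 stem cell genes higher, and 7 of 11 stromal genes higher and 1 lower. Megakaryocyte genes summed to 408 CPM in KO GMP 1 against 102 to 143 in the other GMP libraries, and erythroid genes to 404 against 298 to 328. Late neutrophil genes were at 65.2 CPM in KO GMP 1 against 377 and 352 in WT GMP 1 and 2, monocyte and dendritic cell genes at 814 against 1060.4 and 1100.2, and B, T and NK cell genes at 281 against 405 and 403. The part of these in the result was not tested.

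KO GMP 3 and 4 against WT GMP 3 and 4 gave 0 calls in edgeR and DESeq2 and 0 genes at an unadjusted p under 0.05. Over all genes 0.00659% were called in each direction, and 2.07% were higher and 3.12% lower at the unadjusted threshold. The median was 0.00, with 18 of 36 above 0 (47.9% of all genes) and 14 with library totals. Here too other sums did not overlap. Mast cell and basophil genes were at 988 and 959 CPM in KO GMP 3 and 4 against 1529 and 1488. Monocyte and dendritic cell genes were at 799.9 and 787 against 987 and 952, and megakaryocyte genes at 109 and 102 against 123 and 126. Granule genes were at 46378 and 46952 against 44446 and 44858, and stem cell genes at 664 and 638 against 626 and 596. Erythroid genes were at 328 and 324 against 305 and 298, and B, T and NK cell genes at 491 and 493 against 443 and 476. Stromal genes were at 234.3 and 230.1 against 234.5 and 239.6. The part of these genes' cells was not tested. Pcna was at 458 and 488 CPM in KO GMP 3 and 4 against 481 and 477 (-0.02 ± 0.08), Gins3 at 22.8 and 23.0 against 23.6 and 22.7 (-0.02 ± 0.08), and Cdc45 at 123 and 122 against 129.6 and 124 (-0.05 ± 0.07). The difference between number sets in GMP, which rests on KO GMP 1 alone for its first term, passed for Pcna (-0.46 ± 0.12, adjusted p = 0.0353), Gins3 (-0.49 ± 0.13, adjusted p = 0.0361) and Chaf1a (-0.40 ± 0.12, adjusted p = 0.0487), against 4.36% of all genes lower and 6.27% higher. With the number as a block it passed for 6 genes, 5 lower and Pole higher. It passed for 0 with library totals, and for 0 when any one of KO CMP 3 or 4, KO GMP 3 or 4 or WT GMP 1, 3 or 4 was left out.

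The KO effect in CMP was set against the KO effect in GMP in an interaction test. It called 0 of the 36 genes, as it called 0% of all tested genes, and DESeq2 called 0. Of the 36, 35 had a larger log2 value in CMP (45.7% of all genes), with a median of 0.17 against -0.02 for all genes. The scalings gave 35 or 36 of 36. Orc6, Gins1, Tyms and Lig1 had an unadjusted p under 0.05 (4 of 36 higher and 0 lower, against 0.85% and 2.12% of all genes), at 0.28 ± 0.12, 0.37 ± 0.17, 0.29 ± 0.13 and 0.23 ± 0.10. The comparisons between cell types in WT and in KO use the same libraries, so this is also the test of whether the GMP minus CMP difference was smaller in KO.

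WT libraries also differed by number, but the replication genes were not called more often than genes at large. In WT CMP and in WT GMP, edgeR called no larger a share of the replication genes than of all tested genes, in either direction. In WT CMP, libraries 1 and 2 held more Orc1 (0.45 ± 0.09, adjusted p = 0.00541) and Rrm1 (0.26 ± 0.09, adjusted p = 0.0457) and less Rfc2 (-0.31 ± 0.10, adjusted p = 0.0363) than libraries 3 and 4, against 12.3% of all genes higher and 10.6% lower. With the number as a block, which makes this a comparison of number 1 with number 3, Orc1 alone passed. The CMP count of 3 was 5 without KO CMP 1 or 2, and 1 without any one of KO GMP 3 or 4, WT CMP 2 or 4 or WT GMP 1, 2, 3 or 4. In WT GMP, Pold1 was higher (206 and 219 CPM against 169 and 164, 0.35 ± 0.08, adjusted p = 0.0216) and Rrm2 lower (-0.36 ± 0.07, adjusted p = 0.0108) in numbers 1 and 2, against 3.16% and 5.45% of all genes. That count of 2 was 0 without WT GMP 1 or 4 and 1 without WT GMP 2 or 3. Rrm2 was at 281 and 297 CPM in WT GMP 3 and 4, against 219.7 and 232 in WT GMP 1 and 2. In KO GMP 3 and 4 it was at 314 and 310.0 CPM, against 212 in KO GMP 1. That is a single library that stood apart, so sorting by number cannot be read from the KO libraries.

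In KO CMP 1 and 2, 7 of 47 other replication genes were higher than in WT CMP 1 and 2 and 1 lower, where 8.23% of all tested genes were higher and 10.2% lower. They included Chaf1b (0.47 ± 0.09), Dtl, which targets Cdt1 for degradation (0.38 ± 0.07), the maintenance methyltransferase Dnmt1 (0.37 ± 0.07) and the nucleoside kinase Dck (0.32 ± 0.07). Of 28 G2 and mitosis genes 11 were higher and 0 lower, led by Cdc25b, Ccnb1, Plk1 and Top2a (0.53 ± 0.07, 0.51 ± 0.08, 0.37 ± 0.08 and 0.33 ± 0.07). Of 31 G1/S regulators 9 were higher and 2 lower. Cdkn1a, which encodes the inhibitor p21, was at 111 and 120.4 CPM against 48.9 and 36.2 (1.36 ± 0.11, adjusted p = 4.12e-06), and Ccnd1, cyclin D1, had 1.22 ± 0.10 (adjusted p = 3.9e-06). In KO GMP 1, Cdkn1a was at 87.9 CPM against 19.5 and 20.9 (2.01 ± 0.13, adjusted p = 1.56e-06), Ccnd1 had 1.64 ± 0.12 and E2f2 -0.93 ± 0.12. There 8 of 47 other replication genes were lower and 2 higher, where 9% of all tested genes were lower and 11% higher, with Slbp, the histone mRNA binding protein, at -0.55 ± 0.10 and Cdc7, the kinase that fires origins, at -0.46 ± 0.10. In numbers 3 and 4 none of these 3 lists had a called gene in either cell type in edgeR. At an unadjusted p under 0.05 the CMP counts there were 10 higher and 2 lower of 47 other replication genes, 2 and 0 of 31 G1/S regulators and 0 and 0 of 28 G2 and mitosis genes, beside 6.18% higher and 5.21% lower over all genes. In GMP they were 0 and 0, 3 and 1, and 0 and 0 in the same order, beside 2.07% and 3.12%.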

How the data were processed

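RNA of 15 sorted CMP and GMP samples was sequenced, with libraries made with a SMARTER mRNA-Seq kit per the labels' protocols. Reads were aligned with HISAT to mm10, per the submitters' processing notes. For the tool versions, counting, annotation and strand use, nothing is given in the labels, notes or files at hand. The values the authors deposited are 1 estimated count per gene and library, with no normalization named in the file headers. Of the 40915 values from 1 to 40, 38% are multiples of 4, against 25% if spread evenly. They were therefore taken as estimated counts with about 4 units to 1 fragment. That excess does not settle what 1 unit is, so the depths in fragments are approximate. The main test used the values undivided. KO GMP number 2 was not analysed here. No 2 of the 15 libraries (105 pairs) held identical values, and 25 symbols in the files look like dates.

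Genes were filtered with edgeR 4.0.16 (filterByExpr, R 4.3.3), which kept 15181 of 23337, scaled by TMM and tested with the quasi-likelihood F-test, with Benjamini-Hochberg adjustment over all kept genes and a threshold of 0.05. Overall comparisons used 1 coefficient for each of 4 groups (11 residual degrees of freedom), and comparisons by number used 1 for each of the 8 sets of libraries that share a group and a number pair (residual degrees of freedom, 7). The SE is the log2 difference divided by the square root of F. The fitting script was tested on simulated data. The alternatives were RLE size factors, no filter, DESeq2 1.42.0, the replicate number as a block, values divided by 4, the number set as a covariate and each library left out. Library totals alone, and leaving out KO CMP 1 and 2 with KO GMP 1, were added after the data had been seen. Same-numbered libraries deviated together in every pair of groups (r from 0.179 to 0.613, all over 0.1), which was taken as pairing, though the labels do not say so and in 5 of the 14 same-numbered pairs another number correlated better. Any of the 36 genes could be named, leading with the smallest p past the threshold, and up to 4 genes of each other list by smallest p. The 36 genes and all lists were chosen with earlier results of these data known.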

Additional observations from a re-analysis of the deposited data

Results flagged for a closer look

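In 108 checks of the 36 genes in the 3 groups of 4 libraries, 4 had a library far from the other 3, and chance alone marks about 1 in 20. Mcm7 was at 462 CPM in KO CMP 2 against 569.8 to 579 in the other KO CMP libraries. Tyms was at 106 CPM in KO CMP 1 against 85.9 to 89.0, and Lig1 at 269.9 CPM in KO CMP 1 against 250.1 to 253. Mcm2 was at 353 CPM in WT GMP 4 against 375 to 379 in the other WT GMP libraries.

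The KO effect in GMP differed between numbers 1 and 2 and numbers 3 and 4 by a test of the difference itself in 3 genes, on the log2 scale by -0.40 for Chaf1a, -0.46 for Pcna and -0.49 for Gins3. All 3 rest on 1 KO library, KO GMP 1.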

How the results depend on the processing

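Counts of the 36 genes past the threshold moved by over 1.5 times as follows, and the cause was not tested. DESeq2 gave 3 for KO against WT in CMP, 5 for the GMP step in KO, 9 and 10 for KO in CMP and GMP numbers 1 and 2, 1 and 5 for the difference between number sets in CMP and GMP, and 5 for WT CMP by number. Library totals gave 4 for the GMP step in WT, 11 for KO in CMP numbers 1 and 2, and 1 and 0 for the differences between number sets. No filter gave 3 for KO in CMP numbers 1 and 2 and 1 for the difference in GMP. The number set as a covariate gave 7, and leaving out the KO libraries that stood apart 6, for the GMP step in KO. With the replicate block, which pairs same-numbered libraries, the counts were 10 for KO in GMP numbers 1 and 2, 1 and 6 for the differences between number sets and 1 for WT CMP by number. It was 21 for the GMP step in WT and 4 in KO, and the block left the other counts as they were. For WT libraries by number, the block compares number 1 with number 3, so those counts are not for the main comparison.

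With 1 library left out at a time, the count ran from 7 to 19 for the GMP step in WT, 2 to 7 in KO, 1 to 7 for KO in CMP numbers 1 and 2, and 3 to 8 in GMP numbers 1 and 2. It ran from 0 to 1 and 0 to 4 for the differences between number sets in CMP and GMP, and from 1 to 5 and 0 to 2 for WT CMP and WT GMP by number. It stayed at 0 for KO against WT in CMP, in GMP, in numbers 3 and 4 of both, and for the CMP minus GMP effect. Leaving out 1 of a pair assumes that the lone library varies like the others, and KO GMP 1 could not be left out of its own comparison. No named value changed sign while past the threshold under any alternative run.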
